A study of Mus musculus with 3 samples.

Results

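The genes described here are 34 mouse genes of the interferon response and of nucleic acid sensing, of 24813 genes with a probe on the array. They were chosen by symbol, with earlier results of these data known. They comprised 8 sensors of viral or foreign nucleic acid with their adaptor (Ddx58, Ifih1, Dhx58, Tlr3, Eif2ak2, Zbp1, Adar and Mavs), 5 transcription factors (Irf1, Irf3, Irf7, Irf9 and Stat2) and 21 interferon-stimulated effectors. Together they had 57 probes. Transcript levels were measured on 1-colour Agilent arrays in CLDE, an epithelial line derived from the cervical loop of the mouse incisor, grown in serum-free keratinocyte medium. Cells were collected 72 h after transfection with Lipofectamine RNAiMax. The 3 arrays were titled mock, siNeg (ON-TARGETplus non-targeting control siRNAs) and siKrt15 (a Krt15 mouse siRNA oligo duplex, against keratin 15), with 1 array for each. The series title poses the question of keratin 15 in proliferation of the outer enamel epithelium, and the genes described here were not its stated subject.

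The labels of siNeg and siKrt15 contradict each other, since the description and treatment field of each name the other one. The arrays are called here by their titles. The targeted gene Krt15 had a processed signal of 2638 in the array titled mock, 1647 in the one titled siNeg and 267 in the one titled siKrt15. The log2 difference of siKrt15 was −2.88 from siNeg and −3.48 from mock, so the titles and the level of Krt15 go together and the descriptions do not. The sources used here do not say how many cultures an array represents. With 1 array per group no difference below could be tested against the spread between cultures, and no p-value was computed.

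Mammalian cells detect foreign RNA through cytosolic helicases such as RIG-I (encoded by Ddx58) and MDA5 (Ifih1), which signal through Mavs, and through endosomal Tlr3. This signalling activates Irf3 and Irf7, which induce type I and type III interferons. Secreted interferon then acts through its receptor on a complex that includes Stat2 and Irf9 and binds an interferon-stimulated response element (ISRE) in promoters of the effector genes. A gamma-activated site (GAS) is another element of interferon-responsive promoters. Many sensors and factors of the pathway are themselves interferon-stimulated. Double-stranded RNA, including some siRNAs, can engage these sensors, which is why a non-targeting siRNA and a mock transfection answer different questions as controls.

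The promoter sequences below are those of some of the effector genes, with and without the ISRE core close to the gene start. They are the 250 bases before the start, 5′ to 3′ on the strand of the gene, from RefSeq on GRCm38.p6, with matches to the ISRE core in capitals. The core searched was a pair of GAAA separated by any 2 bases, on both strands, so that a match on the other strand reads as a pair of TTTC. Ifit1, Ifit3, Isg15 and Oas1a are shown because they are interferon-stimulated genes with matches and values above both controls in siKrt15. Oas3 and Bst2 also meet this, with smaller differences, and are not shown. Rsad2 is shown because it has a match without such values, and Oasl2 because it was more than 2-fold higher without a match. Ifit1 lies at chr19:34640639-34640888 (plus strand), Ifit3 at chr19:34583279-34583528 (plus strand) and Isg15 at chr4:156200819-156201068 (minus strand). Oas1a lies at chr5:120907526-120907775 (minus strand), Rsad2 at chr12:26456453-26456702 (minus strand) and Oasl2 at chr5:114896684-114896933 (plus strand).
Ifit1: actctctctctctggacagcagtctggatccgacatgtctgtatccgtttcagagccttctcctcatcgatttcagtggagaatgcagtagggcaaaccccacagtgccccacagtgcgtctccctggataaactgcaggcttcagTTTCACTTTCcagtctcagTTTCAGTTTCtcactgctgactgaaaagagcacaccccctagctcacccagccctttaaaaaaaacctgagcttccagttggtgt
Ifit3: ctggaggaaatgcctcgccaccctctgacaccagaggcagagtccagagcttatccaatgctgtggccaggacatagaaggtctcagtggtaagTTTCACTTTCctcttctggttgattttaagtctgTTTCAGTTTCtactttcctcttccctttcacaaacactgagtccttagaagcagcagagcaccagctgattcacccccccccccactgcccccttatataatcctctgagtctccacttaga
Isg15: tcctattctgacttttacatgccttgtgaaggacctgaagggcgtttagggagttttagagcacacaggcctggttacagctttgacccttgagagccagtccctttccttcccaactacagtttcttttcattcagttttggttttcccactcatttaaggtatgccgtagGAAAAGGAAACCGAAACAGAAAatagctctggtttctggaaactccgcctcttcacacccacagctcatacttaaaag
Oas1a: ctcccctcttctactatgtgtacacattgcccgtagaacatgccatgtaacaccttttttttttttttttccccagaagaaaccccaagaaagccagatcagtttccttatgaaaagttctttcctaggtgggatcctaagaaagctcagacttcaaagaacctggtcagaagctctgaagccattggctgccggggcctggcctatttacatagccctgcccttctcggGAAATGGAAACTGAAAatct
Rsad2: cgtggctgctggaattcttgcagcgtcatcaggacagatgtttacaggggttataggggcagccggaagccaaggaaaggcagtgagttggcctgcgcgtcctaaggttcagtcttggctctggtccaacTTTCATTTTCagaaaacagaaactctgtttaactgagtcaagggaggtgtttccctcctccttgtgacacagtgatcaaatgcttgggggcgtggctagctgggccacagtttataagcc
Oasl2: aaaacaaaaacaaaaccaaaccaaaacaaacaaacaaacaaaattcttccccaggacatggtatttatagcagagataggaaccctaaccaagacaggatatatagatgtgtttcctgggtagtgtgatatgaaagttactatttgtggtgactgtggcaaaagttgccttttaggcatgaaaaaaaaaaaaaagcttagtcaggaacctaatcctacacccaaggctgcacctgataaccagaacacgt

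Ifit1 and Ifit3 held the same pair of matches in the same order. In Ifit1 TTTCACTTTC lay 104 to 95 bases before the start and TTTCAGTTTC 85 to 76 bases before it. In Ifit3 the corresponding matches lay 156 to 147 and 122 to 113 bases before the start. Isg15 held 3 overlapping matches between 78 and 57 bases before the start, and Oas1a held 2 overlapping ones between 20 and 5 bases before it.

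RefSeq windows were found for 27 of the 34 genes, and 7 (Rtp4, Oas2, Zbp1, Mx1, Mx2, Dhx58 and Usp18) had none in the table used. The ISRE core occurred in 8 of the 27 (29.6%), against 936 of 27025 genes with a window (3.46%). It occurred in 7 of 16 effectors (Ifit1, Ifit3, Isg15, Oas1a, Oas3, Rsad2 and Bst2), in 1 of 5 factors (Stat2) and in 0 of 6 sensors. The GAS pattern TTCNNNGAA occurred in 6 of the 27 (Irf1, Eif2ak2, Ifit2, Isg20, Oas1a and Bst2), against 2197 of 27025 genes (8.13%). In Bst2 a GAS match at 136 to 128 bases before the start overlapped an ISRE match at 130 to 121. A match describes these letters only and is not a binding site.

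**Figure D1:**
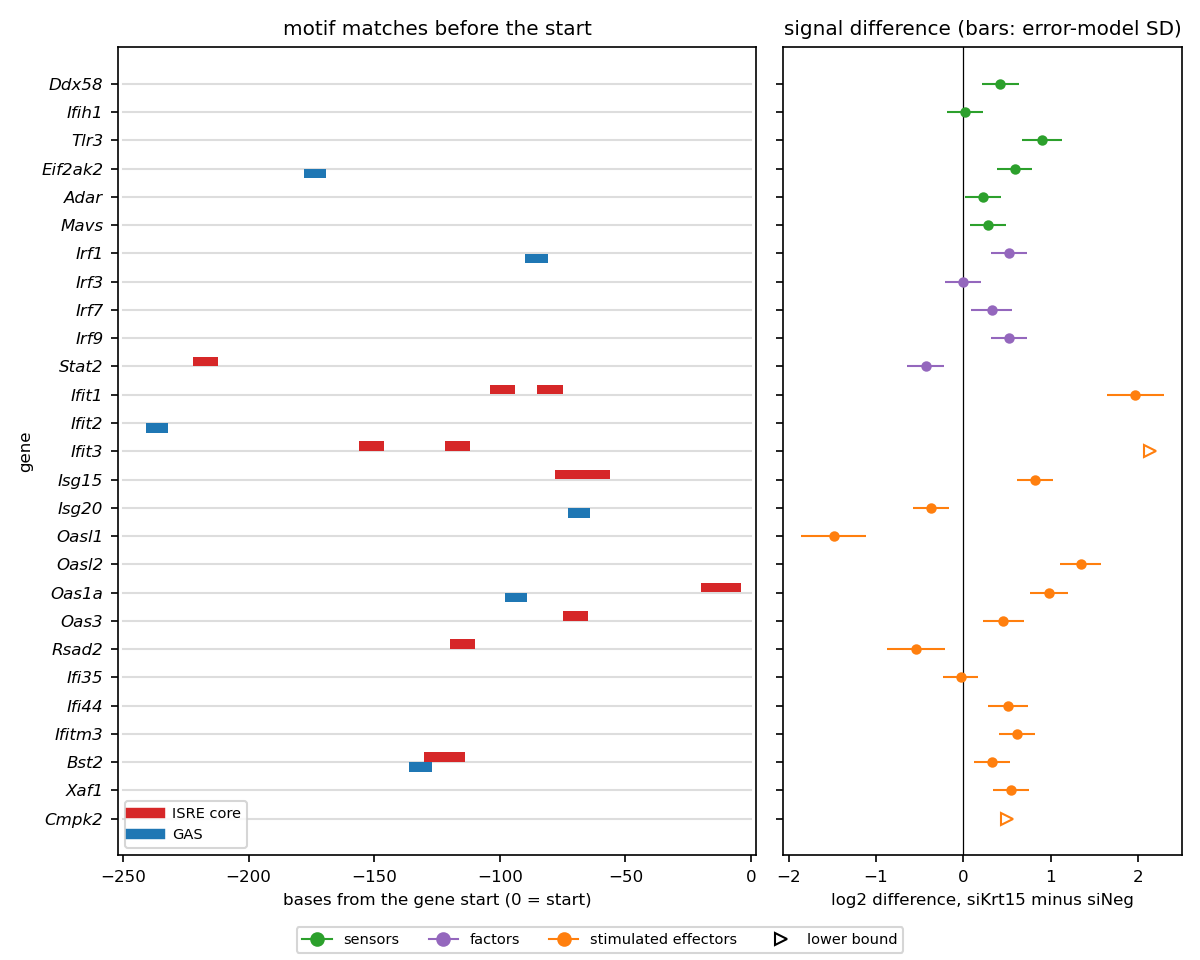
Positions of ISRE core (red) and GAS (blue) matches in the 250 bases before the gene start, for the 27 genes with a RefSeq window, and the log2 difference of siKrt15 from siNeg with its error-model SD. The ISRE matches are in 7 effectors and Stat2, and genes with and without a match have differences both above and below 0.

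Signal is given below as the scanner's processed signal, in arbitrary linear units, and differences are on the log2 scale after subtracting each array's 75th percentile. In the order mock, siNeg and siKrt15 that percentile was 191, 180.4 and 216. A probe was measured in a comparison where it was well above background on both arrays, and each difference carries the SD of the scanner's error model, which covers 1 hybridisation and leaves out differences between cultures. Of 56605 probes, 67.6%, 67.8% and 65.8% were well above background in mock, siNeg and siKrt15. The difference of siKrt15 from siNeg had an SD over all genes of 0.42 and from mock of 0.43, against 0.23 for siNeg from mock. Levels of different probes cannot be set against each other.

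Most of the 34 genes were detected in these epithelial cells, for which the labels name no infection and no added interferon. The 8 sensors and the 5 factors were all well above background on all 3 arrays. Of the 21 effectors 16 were above background in mock, 17 in siNeg and 19 in siKrt15. Ifit1 was above background in siNeg and siKrt15, Ifit3 and Cmpk2 in siKrt15 only, and Ifit2 and Mx1 on no array. The plot of signal by array shows these 34 genes together.

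**Figure D2:**
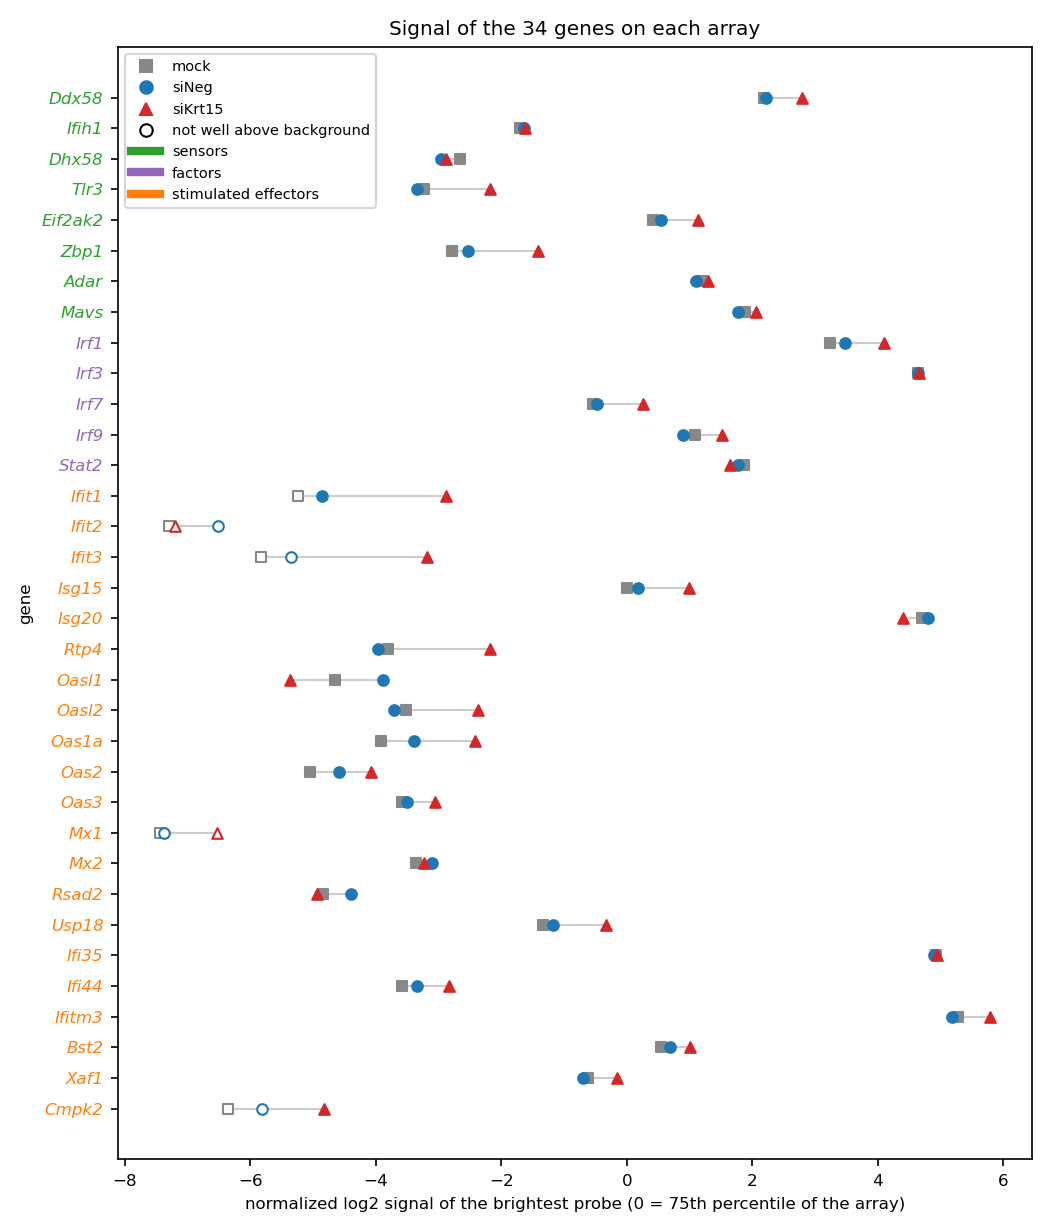
Normalized log2 signal of the brightest probe of each of the 34 genes on the mock (grey squares), siNeg (blue circles) and siKrt15 (red triangles) arrays, where 0 is the 75th percentile of that array and open symbols were not well above background. Ifit1, Ifit3, Rtp4, Oasl2 and Oas1a show siKrt15 to the right of both controls, Oasl1 shows it to the left, and Irf3 and Ifi35 show all 3 arrays together.

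Against siNeg, effectors and sensors were mostly higher in siKrt15, by small amounts. Of 30 genes measured 23 were above 0, against 39.4% of all 17121 genes measured, and the median difference was 0.48 against −0.08 over all genes. Because the list was chosen with earlier results of these data known, its shares here and below describe it and do not test it. At least 2-fold higher were 3 of 30 (Ifit1, Rtp4 and Oasl2), where the share over all genes was 1.7%. Ifit3, at least 4.4-fold higher, was not well above background in siNeg and was not among the 30. At least 2-fold lower was 1 of 30 (Oasl1), where the share over all genes was 2%. These shares came from 291 genes higher and 342 lower. Other processing turned that balance, with 384 higher and 145 lower after quantile normalization, 386 and 135 once the trend with signal was taken out, 82 and 23 with normexp and 564 and 119 on the spike-in scale. The sensors had a median of 0.35, the factors 0.32 and the effectors 0.51. None of the 8 sensors or 5 factors reached 2-fold, so every gene that did was an effector. Under other processing Tlr3 passed 2-fold in 4 of 8 settings and Zbp1 in 2 of 9. With normexp background correction no gene passed in either siKrt15 comparison, and Ifit1 was at 0.21, Rtp4 at 0.37 and Oasl2 at 0.25 above siNeg.

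Against mock the counts were similar, but this comparison uses the same siKrt15 array and is not an independent repeat. Of 29 genes measured 23 were above 0, against 41.9% of all 17131 genes, with a median of 0.51 against −0.06 over all genes. At least 2-fold higher were 3 of 29 (Rtp4, Oas1a and Oasl2), where the share over all genes was 2.18%, and 0 of 29 were at least 2-fold lower, where it was 1.24%. Ifit1 and Ifit3 were not well above background in mock and were not among the 29. The medians were 0.35 for the sensors, 0.34 for the factors and 0.53 for the effectors.

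Among the 29 genes measured on all 3 arrays, siKrt15 gave the highest value for 21 and the lowest for 5, against 32.6% and 51% over all genes. The highest value was in siKrt15 for 7 of 8 sensors, 3 of 5 factors and 11 of 16 effectors. At least 1.5-fold above both controls were 6 of 29 (Tlr3, Isg15, Rtp4, Oasl2, Oas1a and Usp18), where the share over all genes was 4%. At least 2-fold above both were 2 of 29 (Rtp4 and Oasl2), where it was 1.49%. These counts leave out Ifit1 and Ifit3, which were not well above background in mock.

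Among the RNA sensors the endosomal receptor Tlr3 had the largest difference in the main processing. Its probes gave processed signals of 20.3 in mock, 17.8 in siNeg and 47.6 in siKrt15, and 12.8, 14 and 26.1. Both probes were highest in siKrt15 and close to each other in the controls. Tlr3 was higher than siNeg by 0.90 ± 0.23 (error-model SD, mean of 2 probes at 0.64 and 1.16) and higher than mock by 0.95 ± 0.23. With normexp background correction it was at 0.15 against siNeg and 0.22 against mock, while Eif2ak2, the kinase PKR, was then at 0.53 and 0.65, its lowest values in any setting.

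The cytosolic helicases differed from each other. Ddx58, encoding RIG-I, was higher by 0.42 ± 0.21 against siNeg and by 0.54 ± 0.21 against mock. Its 4 probes ranged from −0.20 to 0.73 against siNeg and from 0.28 to 0.82 against mock, so the size depends on the probe. The probe at the lower end against siNeg read 273 in mock, 358 in siNeg and 373 in siKrt15, and another read 868, 835 and 1491. Ifih1, encoding MDA5, lay within the error at 0.02 ± 0.21 and 0.09 ± 0.21. Dhx58, encoding the regulatory helicase LGP2, lay at 0.07 ± 0.22 against siNeg and −0.23 ± 0.22 against mock.

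Eif2ak2 encodes PKR, a kinase that is activated by double-stranded RNA and blocks translation. Its signal was 256 in mock, 263 in siNeg and 473 in siKrt15, which is 0.58 ± 0.20 higher than siNeg and 0.71 ± 0.20 higher than mock. Zbp1, a sensor of Z-form nucleic acid, had probes that differed. One read 27.7, 31.4 and 80.8 in mock, siNeg and siKrt15, and the other 6, 8.2 and 9.67. They gave differences from siNeg of 1.11 and −0.02, and from mock of 1.37 and 0.51. The mean for Zbp1 was therefore 0.54 ± 0.26 against siNeg and 0.94 ± 0.29 against mock, and the second probe was close to background.

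Adar, the editing enzyme that marks cellular double-stranded RNA, was at 0.22 ± 0.21 against siNeg and 0.06 ± 0.21 against mock. Mavs, the mitochondrial adaptor of the helicases, was at 0.28 ± 0.20 and 0.17 ± 0.20. Neither differed from both controls by more than its error. In the main processing the larger differences among the sensors were thus those of Tlr3, Eif2ak2, Zbp1 and Ddx58.

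Among the transcription factors Irf1, which activates interferon and major histocompatibility genes, was higher on both of its probes. The brighter probe read 1810.5 in mock, 2017 in siNeg and 3697 in siKrt15, and the other 67.1, 73.7 and 119. Irf1 was higher by 0.52 ± 0.20 against siNeg and by 0.75 ± 0.20 against mock. Its RefSeq window holds the GAS match TTCCCCGAA at 90 to 82 bases before the start.

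Irf7, the interferon-inducible partner of Irf3, had a probe at 132 in mock, 129 in siNeg and 258 in siKrt15 and another, close to background, at 7.17 in mock and 13 in siKrt15. The brighter probe gave 0.73 against siNeg and the dim one −0.09. Their mean was 0.32 ± 0.23 against siNeg and 0.73 ± 0.25 against mock. Irf9, the DNA-binding subunit of the interferon-activated complex, was higher by 0.52 ± 0.20 against siNeg and by 0.34 ± 0.20 against mock, with both probes above 0.

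Irf3, which is present before infection and activated by phosphorylation, did not differ beyond its error. Its brighter probe read 4745 in mock, 4504 in siNeg and 5431 in siKrt15, which after scaling gave a gene difference of 0.00 ± 0.20 against siNeg and 0.01 ± 0.20 against mock. Stat2, which acts together with Irf9, was lower at −0.43 ± 0.21 and −0.30 ± 0.21. Its brighter probe differed by −0.13 from siNeg and its dim one, at 43 in siNeg and 31.1 in siKrt15, by −0.73.

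Of the effectors, the Ifit genes, which encode proteins that bind viral RNA, stood out among those near background. Ifit1 read 5.08 in mock, where it was not well above background, 6.22 in siNeg and 29.1 in siKrt15. It was 1.97 ± 0.32 higher than siNeg (3.91-fold). Against mock it was 2.34 ± 0.36 higher (5.08-fold), a ratio to a signal not well above background and so not a lower bound. Ifit3 read 3.35 in mock and 4.42 in siNeg, neither well above background, and 23.6 in siKrt15. It was at least 4.4-fold higher than siNeg and at least 4.59-fold higher than mock. Both genes rest on 1 probe each, for Ifit1 at chromosome 19, 34723827 to 34723886, and for Ifit3 at chromosome 19, 34663105 to 34663164, on mm9.

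The rest of the Ifit family did not show this. Ifit2 was not well above background on any array, with signals of 1.22, 1.96 and 1.46. Ifit3b, a near-identical relative of Ifit3 outside the 34 genes, was also not well above background, with 1.51, 2 and 3.75. Cross-hybridisation between the 2 genes was not tested.

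Rtp4, a chaperone of receptor trafficking and a common interferon-stimulated gene, had the largest difference from mock of the 29 genes measured there. It read 13.6 in mock, 11.6 in siNeg and 47.7 in siKrt15. It was 1.78 ± 0.25 higher than siNeg (3.44-fold) and 1.63 ± 0.24 higher than mock (3.1-fold), while the controls differed by −0.15. Its probe lies at chromosome 16, 23613668 to 23613727, on mm9.

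The oligoadenylate synthetase genes went in different directions. These enzymes sense double-stranded RNA and, except for the catalytically inactive Oasl1, make a messenger that activates RNase L. Oasl2 read 16.6 in mock, 13.7 in siNeg and 41.7 in siKrt15, or 1.34 ± 0.24 and 1.15 ± 0.23 higher. Oas1a read 12.7, 17.2 and 40.5, or 0.98 ± 0.22 higher than siNeg, just under 2-fold, and 1.5 ± 0.23 higher than mock. The controls differed for Oas1a by 0.52, so that its value was lowest in mock, higher in siNeg and highest in siKrt15.

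Oas2 read 5.75, 7.48 and 12.8 and was higher by 0.51 ± 0.29 against siNeg and 0.98 ± 0.33 against mock, on 1 of its 2 probes. Oas3 read 15.9, 15.9 and 26 and was higher by 0.45 ± 0.23 and 0.54 ± 0.23. With normexp Oas2 and Oas3 lay at −0.05 and −0.04 against siNeg. Oasl1 went the other way. Its measured probe read 7.63 in mock, 12.1 in siNeg and 5.2 in siKrt15, a difference of −1.48 ± 0.37 from siNeg and −0.73 ± 0.40 from mock. These Oasl1 signals were close to the lowest signal that was well above background, 4.51 in siKrt15, and its second probe was not above background on any array.

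Among ubiquitin-like modifiers and their regulators, Isg15, which is conjugated to viral and host proteins, read 192 in mock, 203 in siNeg and 429 in siKrt15. It was 0.82 ± 0.20 higher than siNeg and 0.98 ± 0.20 higher than mock. Usp18, which removes Isg15 and damps the interferon receptor, read 75.7, 79.5 and 171, or 0.84 ± 0.21 and 1.0 ± 0.21 higher. Against mock Usp18 lay at 1.995-fold, just inside the counted limit of 2-fold on the lower side. For both genes the controls lay close to each other and siKrt15 stood apart from them.

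Membrane-acting effectors were higher by less. Ifitm3, which blocks viral fusion, read 7432 in mock, 6559 in siNeg and 12007 in siKrt15, or 0.61 ± 0.20 and 0.51 ± 0.20 higher. Bst2, encoding the virion tether tetherin, was higher by 0.33 ± 0.20 against siNeg and 0.47 ± 0.20 against mock. Of 2 further effectors, Ifi44 was higher by 0.51 ± 0.23 and 0.75 ± 0.23, but lay at −0.01 against siNeg with no filter on dim probes. Xaf1, a pro-apoptotic gene, was higher by 0.54 ± 0.20 and 0.46 ± 0.20 on 1 of 3 probes, and lay at −0.46 against mock when its dim probes were kept.

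Other effectors lay near or below the controls. Isg20, an RNA exonuclease, was lower on both probes, with a mean of −0.37 ± 0.20 against siNeg and −0.31 ± 0.20 against mock. Its brighter probe read 4992 in mock, 5010.1 in siNeg and 4579.9 in siKrt15. Ifi35 lay at −0.03 ± 0.20 and −0.05 ± 0.20. Mx2, a dynamin-like antiviral GTPase, lay at −0.14 ± 0.23 and 0.12 ± 0.23, and its relative Mx1 was not well above background on any array.

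Rsad2 and Cmpk2 are neighbouring genes of antiviral nucleotide metabolism. Rsad2, encoding viperin, read 6.66 in mock, 8.55 in siNeg and 7.03 in siKrt15 and lay at −0.54 ± 0.33 against siNeg and −0.10 ± 0.36 against mock. Cmpk2 was above background only in siKrt15, at 7.6, and was at least 1.41-fold higher than siNeg and at least 1.48-fold higher than mock. The Rsad2 promoter holds 1 ISRE match, as shown above, and that of Cmpk2 holds none in its window.

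The genes past 2-fold were dim ones. Of the 30 genes measured against siNeg, 16 had a mean signal below the median of all genes and held the 3 that were at least 2-fold higher and the 1 at least 2-fold lower. Among all genes below that median signal 2.32% passed 2-fold upward and 3.6% downward, and their median difference was −0.15. The other 14 had none in either direction, where 1.07% and 0.397% of the brighter genes did. The median difference was 0.51 for the dim genes and 0.37 for the bright ones, so the bright genes were also above their background of −0.03.

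**Figure D3:**
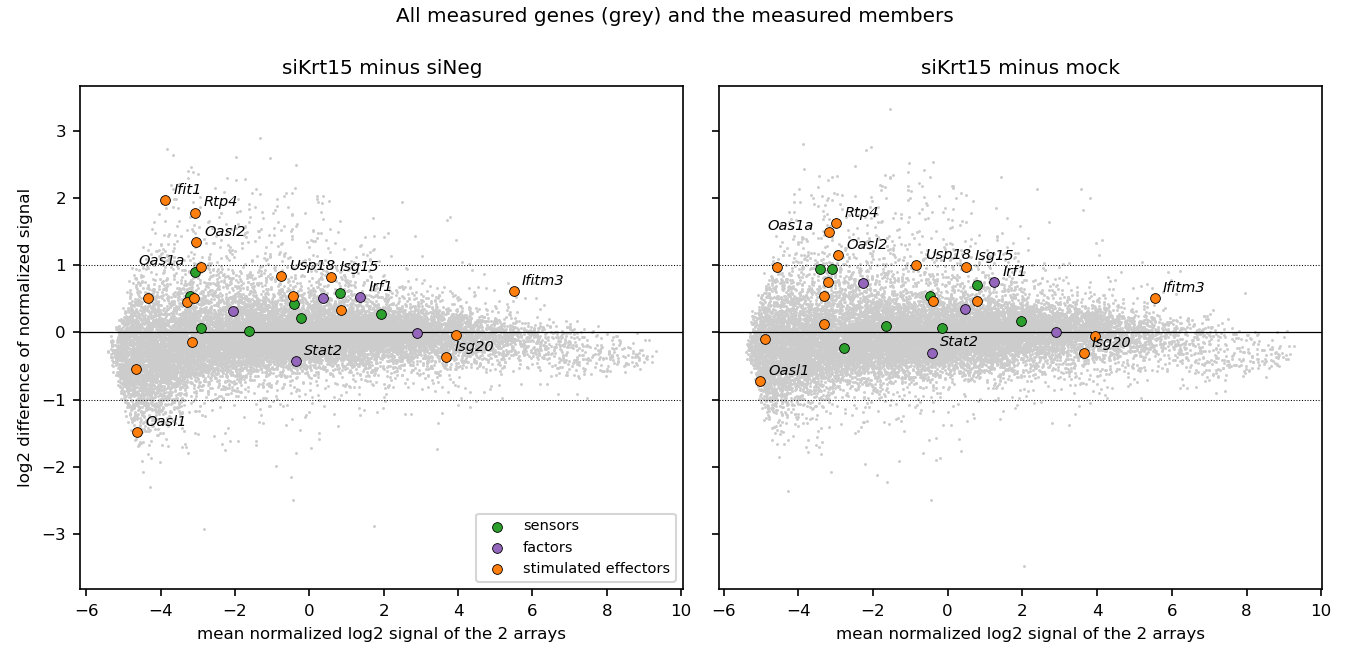
Log2 difference against the mean normalized log2 signal of the 2 arrays for all measured genes (grey) and for the measured sensors (green), factors (purple) and effectors (orange), with dotted lines at 2-fold. Ifit1, Rtp4, Oasl2 and Oasl1 lie on the dim side beyond or near the 2-fold lines, and Ifitm3, Isg15 and Irf1 lie above 0 on the bright side.

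Agreement between probes of the same gene bears on how far these values can be read. Several measured probes were available for 11 genes. Against siNeg 4 of them had all probes above 0, 2 had all below and 5 had both signs (Irf3, Irf7, Ddx58, Ifi35 and Zbp1), with a widest spread of 1.13. Against mock 8 had all probes above 0, 2 all below and 1 (Ifi35) both. The other 19 genes against siNeg rest on 1 probe.

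The non-targeting siRNA itself was compared with mock to show how these genes differ between transfection with and without an siRNA. Of 29 genes measured 20 were above 0, against 55.5% of all 17417 genes, and the median was 0.12 against 0.02. None was at least 2-fold higher or lower, where the shares over all genes were 0.356% and 0.0459%. The sensors had a median of 0.06 and the effectors of 0.15, and with spike-in scaling these were −0.10 and −0.02 beside −0.14 for all genes. The largest differences were those of Oasl1 (0.75 ± 0.31), Oas1a (0.52 ± 0.24), Oas2 (0.46 ± 0.36), Rsad2 (0.44 ± 0.34) and Irf7 (0.41 ± 0.26). Rtp4 and Oasl2 were the 2 of the 29 genes measured on all arrays that were at least 2-fold above both controls. Between siNeg and mock they lay within their error, at −0.15 ± 0.27 and −0.19 ± 0.25. Ifit1 and Ifit3, outside the 29, read 5.08 and 3.35 in mock and 6.22 and 4.42 in siNeg.

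The differences were also set beside the ISRE matches. The 7 measured genes with a match had a median difference from siNeg of 0.46, and the 17 measured genes with a window and no match had 0.42. Ifit3, which has matches and was at least 4.4-fold higher, was not measured in siNeg and is left out of the first median. Ifit2 and Cmpk2, without a match, are left out of the second. The closeness of these medians therefore depends on the background filter. Outside the 34 genes, 405 measured genes with a match had a median of −0.05 and 3.7% of them were at least 2-fold higher. For the 13035 measured genes without one the median was −0.08 and the share 1.57%. Stat2 and Rsad2 had a match and were below siNeg, and Oasl2 and Tlr3 had none and were above it.

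Other genes of the pathway, 80 in all outside the 34, were described for comparison, and 63 of them were measured against siNeg. Their median difference was 0.04 against siNeg and 0.05 against mock, where those of all genes were −0.08 and −0.06. Against siNeg 36 of 63 were above 0 (57.1%, against 39.4% of all genes), and siKrt15 was the highest array for 31 of 63 (49.2%, against 32.6%). In each comparison 2 of 63 were at least 2-fold higher, where the shares over all genes were 1.7% and 2.18%, and 0 were lower, where they were 2% and 1.24%. Of 9 interferon genes with a probe 4 were well above background on all 3 arrays and 4 on none. Ifnb1, Ifna4, Ifng and Ifne were not well above background on any array, and Ifnk was so only in siNeg, at least 1.68-fold above siKrt15. The 4 measured ligands were Ifna1 (0.03 against siNeg, −0.48 against mock), Ifna2 (−0.30, −0.45), Ifna5 (−0.31, −0.46) and Ifnl3 (−0.34, −0.35).

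The receptors and proximal signalling genes were all measured, 12 of 12, with medians of 0.07 and 0.06 and 0 past 2-fold. Socs1, a feedback inhibitor of Jak kinases, read 26.9 in mock, 30 in siNeg and 58 in siKrt15, or 0.69 and 0.93 higher. Ifngr1, a chain of the interferon gamma receptor, was higher by 0.62 and 0.56, and Il10rb, which pairs with the interferon lambda receptor, by 0.41 and 0.45.

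Of the other nucleic acid sensing genes 16 of 18 were measured, with medians of 0.01 and 0.03. Ifi204, a DNA sensor of the HIN-200 family, was higher on both probes, with a mean of 1.02 against siNeg and 0.93 against mock. Sting1, the adaptor for cytosolic DNA, was higher by 0.71 and 0.40, and Cgas, the DNA-sensing synthase upstream of it, was lower at −0.41 and −0.40. Aim2, an inflammasome DNA sensor, was above background only in siKrt15, at least 1.69-fold above siNeg. Of 40 other interferon-stimulated genes 31 were measured against siNeg, with medians of 0.07 and 0.13. In each siKrt15 comparison 19 of the 31 were above 0 (61.3%) and 12 below. Over all genes 39.4% were above 0 against siNeg and 41.9% against mock. The lowest of the 31 lay at −0.57 against siNeg, and the genes named next are the highest. Samd9l, an antiviral translation inhibitor, read 142 in mock, 129 in siNeg and 345 in siKrt15, or 1.16 and 1.1 higher. Uba7, the activating enzyme for Isg15, was higher by 0.88 and 1.03 and Slfn2 by 0.89 and 0.84.

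Markers of cell types were read on the same arrays. All 6 epithelial markers were above background on every array, with a median of −0.13 against siNeg and −0.07 against mock. The keratins Krt5 (−0.11 against siNeg, 0.02 against mock) and Krt14 (−0.16, −0.11) and the integrin Itgb4 (0.07, −0.02) were close to 0. The adhesion molecule Epcam was at 0.53 and 0.60, Cdh1, the E-cadherin gene, at −0.24 and −0.18, and the transcription factor Trp63 at −0.32 and −0.56. Of the dental epithelial markers Shh, Ambn and Enam were not well above background on any array, and Amelx was so in the controls only. Of 8 blood and immune markers 6 were above background in mock, 5 in siNeg and 6 in siKrt15, and Adgre1 and Lyz2, markers of macrophages and myeloid cells, were so on no array. The 5 measured on all arrays were Ptprc, on 2 of its 7 probes, Cd3e and the myeloid markers Cd68, Itgam and Csf1r. They had a median of −0.28 against siNeg and were highest in siKrt15 in 0 of 5, against 32.6% of all genes. Of the fibroblast markers Dcn was lower in siKrt15, at −1.07 ± 0.20 and −1.20 ± 0.20, as was Pdgfra at −0.94 ± 0.26 and −0.67 ± 0.34. Pdgfra rested on 1 of its 3 probes against siNeg and on 2 against mock. Col3a1 lay at −0.80 ± 0.41 and −0.38 ± 0.42 on 1 of its 3 probes, so its value against mock is within its error. Vim was well above background in mock but not in siNeg or siKrt15, and Pdgfrb on no array. In such bulk RNA fewer cells of a type and less RNA per cell cannot be told apart. Whether these markers have a part in the differences of the 34 genes was not tested.

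The relation of effectors to sensors was read under each way of processing. Relative to the median of all genes, the effectors lay 0.59 and the sensors 0.43 above it against siNeg. With normexp background correction, which shrinks differences of dim probes, these values were 0.31 and 0.24. With quantile normalization they were 0.65 and 0.37. Both lists stayed above the median of all genes in the siKrt15 comparisons under the 9 alternatives, but the gap between the lists was small beside the range within the effectors (−1.48 to 1.97) and against mock it closed with normexp (0.29 and 0.28). Of the single genes 22 of 30 kept their sign against siNeg. The 8 that changed sign in at least 1 setting were Oas2, Oas3, Ifi44, Mx2, Irf3, Ifih1, Dhx58 and Ifi35.

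**Figure D4:**
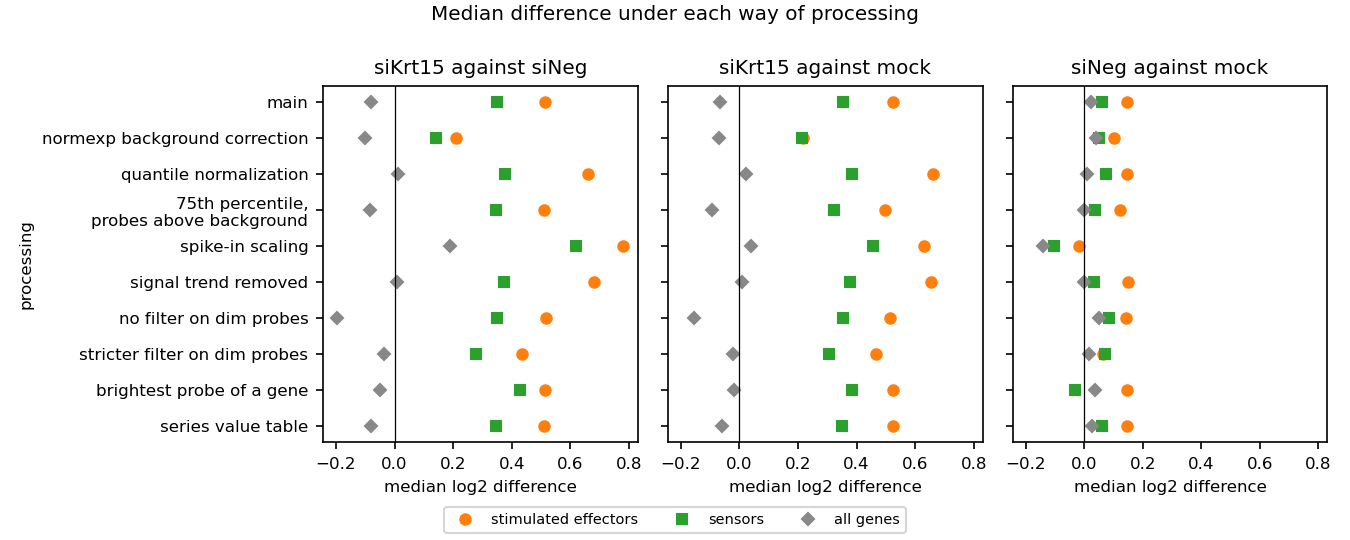
Median log2 difference of effectors (orange circles), sensors (green squares) and all genes (grey diamonds) under the main processing and 9 alternatives, for the 3 comparisons. In both siKrt15 panels the 2 lists lie to the right of all genes in every row, and with normexp they lie closer to it than in the main processing.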

How the data were processed

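Total RNA from the 3 transfections was hybridised to 1-colour arrays, 1 per group. The authors deposited scanner files with a background-subtracted processed signal per spot, an intensity on a linear scale, and per-spot flags (0 or 1) for background, saturation and outliers. Feature Extraction 11.5.1.1 by Agilent made them, according to the submitters' processing notes. Probe coordinates are on mm9, per the file headers. A value table that the authors deposited is on a log2 scale. It equalled the log2 processed signal less a constant near the 75th percentile to within 0.01 for 93.8%, 94.0% and 92.4% of probes (column medians −3.52, −3.51 and −3.72) and served as an alternative.

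The main values were computed in Python 3.11.15 with pandas 2.3.3 from the scanner files. Spots with an outlier flag (69, 68 and 85) were dropped and 0 were saturated. The log2 signals of a probe's spots were averaged and the 75th percentile over non-control probes was subtracted on each array. Spots of 300 probes printed 10 times each had a median SD of 0.05. Symbols came from RefSeq on GRCm38.p6, for 32994 probes by accession, 10224 by symbol and 520 by synonym. The 12867 probes without such a match stayed out of counts over all genes. Exon or UTR positions on mm9 were not analysed here. Probes above background and unsaturated on both arrays were averaged per gene, as were their error-model SDs. The counted difference was 2-fold. For genes above background on 1 array only, a bound was computed with the dim array at its own signal or at its lowest signal well above background, whichever was higher. Where the dim array's own signal was used, as for Ifit1 against mock, the value is a ratio and not a lower bound. The number of arrays limits the precision. Normexp (offset 50) was run with limma 3.58.1 in R 4.3.3. The code was tested on simulated data.

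The 34 genes and all lists were chosen with earlier results of these data known. Text names the 34 genes, Krt15, cell type markers and, of the other pathway lists, genes at least 2-fold apart in a siKrt15 comparison and the 3 with the largest difference from siNeg. Ifna1, Ifna4, Ifnb1, Ifng, Ifne, Ifnk, Aim2 and Ifit3b fall outside that rule and were named after their values were seen. Some genes of these lists are not reported here.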

Additional observations from a re-analysis of the deposited data

How the results depend on the processing

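No paired analysis was possible because each group had 1 array and no result came from a test, and for the same reason no array could be left out. Of all genes past 2-fold, 291 were higher and 342 lower against siNeg, and 384 and 145 with quantile normalization. Against mock they were 374 and 213, and 477 and 103 with quantile. The causes of the changes below were not tested, except that normexp with an offset shrinks differences of dim probes by construction and that the stricter filter (a signal of at least 20) tests fewer genes. Against siNeg, the effector median was 0.21 with normexp and 0.78 with spike-in scaling, and the sensor median 0.14 and 0.62, while spike-in scaling moved the median of all genes from −0.08 to 0.19. Of the 34 genes, those at least 2-fold higher than siNeg numbered 0 (normexp), 5 (quantile), 7 (spike-in), 5 (signal trend removed), 5 (no filter on dim probes), 1 (stricter filter), 5 (brightest probe) and 8 (at 1.5-fold). All genes tested against siNeg numbered 17121 in the main processing, 24812 with no filter and 13410 with the stricter filter. Against mock they numbered 17131, 24813 and 13445. Some counts of the 34 genes have no count over all genes beside them and cannot be read as an excess. Those at least 2-fold lower numbered 0 with normexp and 0 with the stricter filter. All genes higher than siNeg numbered 82 with normexp, 564 with spike-in scaling, 477 with no filter and 821 at 1.5-fold. All genes lower numbered 23 with normexp, 145 with quantile, 119 with spike-in, 135 with the trend removed, 2069 with no filter, 65 with the stricter filter and 1477 at 1.5-fold. Against mock, the effector median was 0.22 with normexp. Of the 34 genes, those higher numbered 0 with normexp, 7 with quantile, 8 with spike-in, 8 with the trend removed, 7 with no filter, 5 with the brightest probe and 12 at 1.5-fold, and 1 was lower at 1.5-fold. All genes higher numbered 102 with normexp, 646 with no filter and 998 at 1.5-fold. All genes lower numbered 24 with normexp, 103 with quantile, 139 with spike-in, 119 with the trend removed, 1549 with no filter, 73 with the stricter filter and 1318 at 1.5-fold. For siNeg against mock, all genes higher numbered 0 with normexp, 25 with spike-in, 34 with the trend removed, 836 with no filter, 4 with the stricter filter and 422 at 1.5-fold. All genes lower numbered 0 with normexp, 21 with spike-in, 413 with no filter, 0 with the stricter filter and 149 at 1.5-fold, and 1 of the 34 was higher at 1.5-fold. Single genes kept their sign in every setting for 22 of 30 against siNeg, 24 of 29 against mock and 15 of 29 for siNeg against mock. Isg15 lay between 0.73 and 1.09 above siNeg over its 9 alternatives. Signals close to background therefore limit what the dim genes show.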
